A study of Homo sapiens with 5 samples.

Results

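The mRNAs of the Notch pathway were followed through RNA immunoprecipitation sequencing (RIPseq) of CBFB and hnRNPK in MCF10A, a human breast epithelial cell line that is not tumorigenic. The members were 10 genes fixed by name, namely the receptors NOTCH1, NOTCH2 and NOTCH3, the ligands JAG1 and JAG2, the inhibitors NUMB and NUMBL, the nuclear factors RBPJ and MAML1, and the target HES1. They are 10 of 56632 gene identifiers in each table, and all 10 were among the 11764 genes analysed, whose FPKM averaged 1 or more over the 5 libraries. FPKM, the fragments of a gene divided by its transcript length and by the total of the library, is the level per length used throughout.

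RIP recovers a protein from a cell lysate with an antibody, together with the RNA that comes with it, and that RNA is set against the input, which is RNA without immunoprecipitation. The cells expressing FLAG-tagged CBFB gave 1 input, referred to as the tagged input, and 1 RIP with a FLAG antibody. The parental cells gave 1 input and 2 repeats of a RIP with an hnRNPK antibody, and no group was treated. CBFB is the non-DNA-binding partner of the transcription factor RUNX1, hnRNPK binds RNA and favours C-rich sequence, and the comparison asks which transcripts come down with each. In the study's methods FLAG-tagged CBFB was put by lentivirus into MCF10A cells from which CBFB had been deleted, for protein pull-downs. The labels do not say whether these libraries come from the same line, whether it is a single clone, or whether the 2 repeats come from separate cultures, so the spread may be technical. No mock immunoprecipitation was analysed here.

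Notch receptors are membrane proteins that ligands of the Jagged and Delta families on a neighbouring cell activate. Cleavage by ADAM proteases and then by gamma-secretase frees the intracellular domain, which enters the nucleus, joins RBPJ and Mastermind (MAML) proteins, and turns on targets such as HES1. NUMB and its relative NUMBL hold the pathway down, and in the mammary gland Notch signalling takes part in the choice between basal and luminal fates.

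The libraries held 69786576 to 106855647 expected counts. Genes of the mitochondrial genome took 4.27% and 11.2% of input counts, but 62.2% of those of the FLAG-CBFB RIP and 84.5% and 86.6% of those of the hnRNPK repeats. Of the 11764 analysed genes, 10906 had a lower FPKM in the FLAG-CBFB RIP than in its input, and 11068 were lower in both hnRNPK repeats than in theirs. The 8 basal mammary markers measured lay between 1.81 and 1974 FPKM in the inputs, CDH1 and EPCAM between 69.3 and 103, and the luminal receptors ESR1 and PGR, the leukocyte gene PTPRC and the endothelial gene CDH5 were at 0 to 0.71. CBFB itself was at 53.9 FPKM in the tagged input and 32.2 in the parental one. The 10 members together had 10669 to 109743 counts per library and no single value below 129 counts, and the 95% counting error of their log2 ratios of hnRNPK RIP to input lay between 0.06 and 0.25.

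Enrichment was therefore measured relative to the average gene. It is the log2(FPKM + 1) of a RIP minus that of its own input, centred on the mean of that difference over the analysed genes, which was -1.34 for FLAG-CBFB and -2.61 and -2.68 for the hnRNPK repeats. A value of 0 thus means the same change as the average gene and not the same level as in the input, and weakly expressed genes change less on it than they would without the added 1. Without centring all 10 members were below 0 in both RIPs, except NOTCH3 at 0.35 in hnRNPK RIP. Both hnRNPK repeats were set against the same parental input, so their SD holds no error of the input. A transcript was called enriched above 2, that is 4-fold. Across the analysed genes the difference between the hnRNPK repeats had an SD of 0.35, and the medians of the centred values were -0.19 for FLAG-CBFB and -0.11 for hnRNPK.

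None of the 10 Notch pathway mRNAs was enriched in the FLAG-CBFB RIP, beside 4.37% of analysed genes, and 2 of 10, NOTCH3 and NUMBL, were enriched in the hnRNPK RIP, beside 8.2% of analysed genes. The 0 of 10 above both thresholds stood beside 3.79% of all genes. The median enrichment of the members was -0.63 in FLAG-CBFB RIP and 0.35 in hnRNPK RIP, on either side of the medians of all genes. The lowest FLAG-CBFB value was that of NOTCH1 and the highest that of NUMBL, whereas hnRNPK ran from JAG2 to NOTCH3. RUNX1, a bound transcript in the study, reached 2.13 for FLAG-CBFB and 3.09 ± 0.28 (SD, n = 2) for hnRNPK, and GAPDH, its unbound transcript, had -0.18 and -2.69 ± 0.04 (SD, n = 2). All members lay above GAPDH in hnRNPK RIP, by 1.39 for JAG2 to 5.68 for NOTCH3, and 6 of 10 lay below it in FLAG-CBFB RIP. GAPDH itself was at percentile 1.12 of the analysed genes for hnRNPK and 50.6 for FLAG-CBFB. Nearly all genes thus lay above it in hnRNPK RIP, and the members did not stand out in this.

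**Figure D1:**
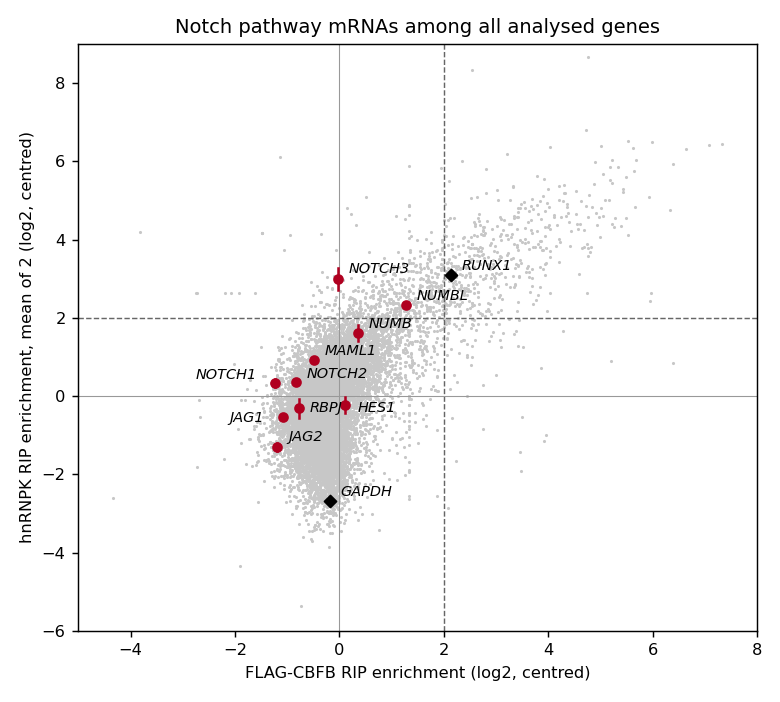
Enrichment in FLAG-CBFB RIP (x axis, log2, centred) and in hnRNPK RIP (y axis, log2, centred, mean of 2 repeats) of the 11764 analysed genes (grey), the 10 Notch pathway mRNAs (red, with lines joining the repeats) and GAPDH and RUNX1 (black). Dashed lines mark the threshold of 2. All members lie left of the vertical threshold, from -1.23 for NOTCH1 to 1.27 for NUMBL, and NOTCH3 and NUMBL lie above the horizontal one.

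hnRNPK binds C-rich RNA, so the most C-rich stretch of 30 bases is printed for the 3 members with the highest and the 3 with the lowest hnRNPK enrichment. Each was read from the longest coding transcript of the gene in GENCODE 29 (GRCh38) that the tables also list, 5′ to 3′ along the transcript, and capitals mark runs of at least 3 C. All 6 lie within a single exon. The stretch of NOTCH3 lies in coding sequence at chr19:15185537-15185566 on the minus strand, that of NUMBL in the 3′ UTR at chr19:40667344-40667373 on the minus strand, and that of NUMB in coding sequence at chr14:73284299-73284328 on the minus strand. Those of JAG2, at chr14:105168542-105168571 on the minus strand, and JAG1, at chr20:10673877-10673906 on the minus strand, lie in the 5′ UTR, and that of RBPJ lies in coding sequence at chr4:26430005-26430034 on the plus strand.
NOTCH3: CCCCCactctgcctCCCCCCgagccatCCC
NUMBL: CCCCtcaacaCCCtctcaacaCCCCCCtcc
NUMB: cactgCCCCatCCCCatcctctCCCacctc
RBPJ: CCCtgtccttgCCCCagtcactcctgtgcc
JAG1: ttctCCCCtCCCtCCCCCCtttttccatgc
JAG2: CCCCgCCCgcgccgccgccgccgccgcctc

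A single C-rich stretch did not separate the groups. The stretches of NOTCH3 and NUMBL hold 20 C, and 24.9% of 10507 genes with a coding transcript have one at least as rich. The JAG2 stretch holds 21 C, which 13.8% of genes match or exceed, although JAG2 had the lowest hnRNPK enrichment of the members. With 0.1 added to FPKM in place of 1, JAG1 was the lowest, at -1.20 against -1.15 for JAG2. On log2 CPM of the counts with TMM factors JAG1 was also the lowest, at -1.18 against -0.73. Across the 10507 genes Spearman's rho between the C content of the richest stretch and the hnRNPK enrichment was 0.32, and across the 10 members 0.33. With the FLAG-CBFB enrichment it was 0.08 across the 10507 genes. Transcript length had a rho of 0.30 with hnRNPK and -0.32 with FLAG-CBFB across these genes, and length and C content were not separated. The number of C runs along the whole transcript was also counted. NUMBL had 28.6 runs of at least 3 C per kb, NOTCH3 27.6 and MAML1 25.5, against a median of 13.2 over all genes, while RBPJ had 5.18 and JAG1 12.5. Across the 10 members Spearman's rho between C runs per kb and the enrichment was 0.60 for hnRNPK and 0.26 for FLAG-CBFB, and across the 10507 genes 0.21 and 0.25, so that over all genes the richest stretch had the higher rho for hnRNPK. These describe genes measured in the same libraries, which are not independent replicates. JAG2, with 17.8 runs per kb and an hnRNPK enrichment of -1.30, and NUMB, with 14.1 and 1.61, lay furthest off that order, and NOTCH1, with 23.6 and 0.33, also lay off it. The transcripts read were 5835 nt for JAG2 and 5172 nt for NUMB. The mean lengths given with the parental input counts were 3359 and 3226 nt, whereas MAML1 had 5723 and 5738 nt. RBPJ was read at 5990 nt against a mean of 2334 nt, and NUMBL at 3561 nt against 2474 nt. The stretches and runs of JAG2, NUMB, RBPJ and NUMBL may thus not be those of the isoforms present, which was not tested.

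**Figure D2:**
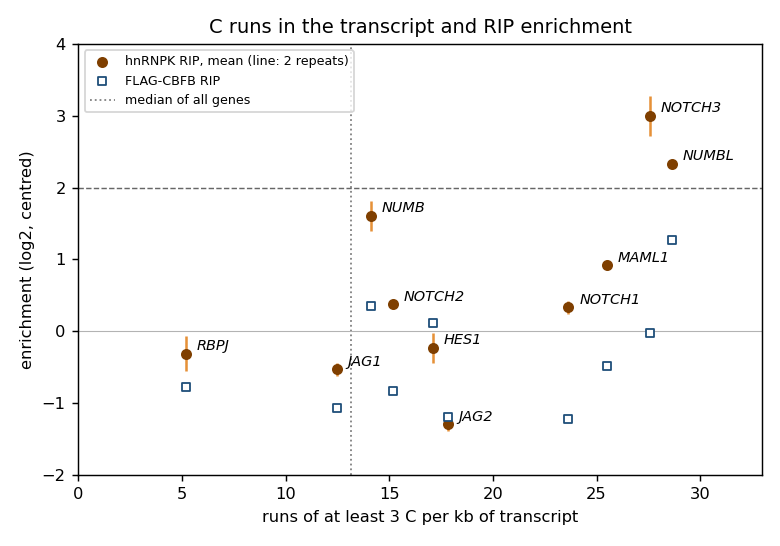
Runs of at least 3 C per kb of the longest coding transcript (x axis) and enrichment (y axis, log2, centred) of the 10 members, as filled circles for the mean of the 2 hnRNPK repeats with a line joining the repeats, and as open squares for FLAG-CBFB. NUMBL and NOTCH3, at 28.6 and 27.6 runs per kb, lie above the threshold of 2 for hnRNPK (dashed), while the dotted line marks the median of all genes, 13.2.

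Among the receptors, NOTCH3 alone was enriched against its own input, in hnRNPK RIP. NOTCH1, NOTCH2 and NOTCH3 encode related single-pass membrane receptors and lie on chromosome 9 (136494433 to 136545786), chromosome 1 (119911553 to 120069626) and chromosome 19 (15159038 to 15200981) of GRCh38 in GENCODE 29, all on the minus strand. NOTCH3 had 12.7 FPKM in the tagged input and 4.33 in its RIP, and 2.36 in the parental input with 4.34 and 2.45 in the hnRNPK repeats. It was the only member whose FPKM in both hnRNPK RIPs was not below that of the parental input, at 1.84 and 1.04 times its level. Its hnRNPK enrichment was 3.28 and 2.72 in the repeats, a mean of 3.0 ± 0.40 (SD, n = 2), higher than 96.1% of analysed genes. Its FLAG-CBFB enrichment was -0.03, with a counting error of ± 0.06 (95% interval of the log2 ratio of counts) and no repeat. Counts behind these values were 1277 in the parental input, 3098 in the first hnRNPK repeat and 1732 in the second.

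The test that the design allows compared the counts of the 2 hnRNPK RIPs with those of the parental input, with its spread taken from the repeats alone. In edgeR's quasi-likelihood test with Benjamini-Hochberg adjustment over all 11764 genes, 24.6% of genes were higher and 14.3% lower in the RIP at an adjusted p under 0.05. Of the 10 members, 6 were higher, 1 was lower and 3 did not pass. NOTCH3 was higher by 4.38 on the log2 scale (SE 0.43, edgeR adjusted p = 2.35e-07). TMM scaling, like centring, sets the typical gene to no change. With library sizes alone 2.72% of genes were higher and 90.6% lower, and without a filter on low counts 20.2% and 28.6%. With library sizes alone the log2 values of the 10 members lay between -4.95 for JAG1 and 0.43 for NOTCH3, and all but NOTCH3 were then below 0.

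NOTCH1 was the member furthest below the average gene in FLAG-CBFB RIP. It had 27.5 FPKM in the tagged input and 3.81 in its RIP, and 10.1 in the parental input with 1.14 and 1.32 in the hnRNPK repeats. Its FLAG-CBFB enrichment was -1.23, lower than that of all but 1.26% of analysed genes, and its hnRNPK enrichment was 0.33 ± 0.13 (SD, n = 2). In edgeR the log2 change was 0.92 (SE 0.36, adjusted p = 0.0508), which did not pass, while DESeq2's Wald test called it (adjusted p = 0.0445).

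NOTCH2 was close to NOTCH1 in hnRNPK RIP and their repeats overlapped. Its level was 14.2 FPKM in the tagged input and 2.36 in its RIP, and 10.3 in the parental input with 1.45 and 1.23 in the hnRNPK repeats. The FLAG-CBFB enrichment was -0.84, the hnRNPK enrichment 0.37 ± 0.05 (SD, n = 2), and the edgeR log2 change 1.06 (SE 0.35, adjusted p = 0.0217), which did not pass without a filter on low counts (adjusted p = 0.195). NOTCH2 is uncertain, because a NOTCH2NL gene that shares sequence with it had 3252 parental input counts with 432 and 289 in the hnRNPK repeats, beside 7766, 1624 and 1252 for NOTCH2, and reads may have been split between them.

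Both ligands were below the average gene in both RIPs. JAG1 and JAG2 encode the Jagged ligands and lie on chromosome 20 (10637684 to 10673999) and chromosome 14 (105140981 to 105168824), on the minus strand. JAG1 had 20.3 FPKM in the tagged input and 3.0 in its RIP, and 11.4 in the parental input with 0.49 and 0.26 in the hnRNPK repeats. Its enrichment was -1.08 for FLAG-CBFB and -0.53 ± 0.12 (SD, n = 2) for hnRNPK. JAG1 was the only member that was lower in the edgeR test, with a log2 change of -1.0 (SE 0.36, adjusted p = 0.037), and DESeq2's Wald test did not call it (adjusted p = 0.134).

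JAG2 was the second most abundant of the 10 per length in both inputs with rank 4 for FLAG-CBFB, and 8 and 6 for the hnRNPK repeats. It had 35.1 FPKM in the tagged input and 5.25 in its RIP, and 35.5 in the parental input with 1.28 and 1.48 in the hnRNPK repeats. The enrichment was -1.19 for FLAG-CBFB, lower than that of all but 1.52% of genes, and -1.30 ± 0.14 (SD, n = 2) for hnRNPK. The edgeR log2 change of -0.60 (SE 0.34, adjusted p = 0.173) did not pass, but without a filter on low counts it did (adjusted p = 0.0197). JAG2 shares 469 exonic bases with a noncoding gene on the same strand that had at most 45 counts in a library.

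The inhibitors stood at the other end. NUMB encodes an endocytic adaptor that promotes removal of Notch receptors, NUMBL its close relative, and they lie on chromosome 14 (73275107 to 73458617) and chromosome 19 (40665905 to 40690972), on the minus strand. NUMBL had 5.67 FPKM in the tagged input and 5.37 in its RIP, and 5.70 in the parental input with 4.74 and 4.05 in the hnRNPK repeats. Its level per length thus stayed between 4.05 and 5.70 in all 5 libraries, while the average gene was lower in the RIPs. The FLAG-CBFB enrichment was 1.27 (counting error ± 0.12), higher than that of 92.4% of analysed genes and the highest of the members, but under the threshold. On log2 CPM of the counts with TMM factors it was 2.01. The mean transcript length of NUMBL was 2487 nt in the FLAG-CBFB RIP and 2052 nt in the tagged input. The hnRNPK enrichment was 2.39 and 2.27, a mean of 2.33 ± 0.08 (SD, n = 2), and the edgeR log2 change was 3.57 (SE 0.41, adjusted p = 1.3e-06). NUMBL was one of the transcripts the study followed by real-time PCR.

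NUMB was the most abundant member per length in both hnRNPK RIPs. It had 27.9 FPKM in the tagged input and 13.6 in its RIP, and 23.4 in the parental input with 13.1 and 9.04 in the hnRNPK repeats. With an enrichment of 0.36 for FLAG-CBFB and 1.61 ± 0.30 (SD, n = 2) for hnRNPK it was the member nearest below the threshold. Its edgeR log2 change was 2.84 (SE 0.38, adjusted p = 7.91e-06). NUMB passed the hnRNPK threshold with a pseudocount of 0.1, at 2.35, and on log2 CPM of the counts with TMM factors, at 2.70.

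MAML1, a coactivator of the Notch complex on chromosome 5 (179732850 to 179777286, plus strand), was above the average gene in hnRNPK RIP and below it in FLAG-CBFB RIP. It had 15.8 FPKM in the tagged input and 3.74 in its RIP, and 14.0 in the parental input with 3.55 and 3.51 in the hnRNPK repeats. The enrichment was -0.48 for FLAG-CBFB and 0.92 ± 0.04 (SD, n = 2) for hnRNPK. The edgeR log2 change was 1.98 (SE 0.36, adjusted p = 0.000275).

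RBPJ, the DNA-binding protein of the complex on chromosome 4 (26163455 to 26435131, plus strand), gave different answers by FPKM and by counts. It had 18.7 FPKM in the tagged input and 3.53 in its RIP, and 19.2 in the parental input with 2.17 and 1.14 in the hnRNPK repeats. The enrichment was -0.78 for FLAG-CBFB and -0.31 ± 0.35 (SD, n = 2) for hnRNPK, whereas the edgeR log2 change was 1.23 (SE 0.36, adjusted p = 0.0123). The mean transcript length to which RSEM assigned its reads was 2334 nt in the parental input but 3597 and 4711 nt in the hnRNPK repeats, 1.54 and 2.02 times as long. In the other 9 members that ratio was 0.90 to 1.10 in the hnRNPK repeats. For the FLAG-CBFB RIP over its input the length ratio was 1.21 for NUMBL, 1.19 for NUMB and 1.14 for RBPJ. FPKM divides by this length and counts do not. On log2 CPM of the counts with TMM factors the hnRNPK value of RBPJ was 1.09, and on FPKM with a pseudocount of 0.1 it was -0.08. The 2 measures of HES1 also had opposite signs, but its FPKM value turned to 0.36 with a pseudocount of 0.1. How much of the difference in RBPJ came with the length was not tested. Without a filter on low counts RBPJ did not pass (adjusted p = 0.0905).

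HES1, the transcriptional repressor that Notch switches on, lies on chromosome 3 (194136145 to 194138732, plus strand) and was the most abundant member per length in both inputs. It had 51.1 FPKM in the tagged input and 21.2 in its RIP, and 43.1 in the parental input with 6.10 and 4.07 in the hnRNPK repeats. The enrichment was 0.11 for FLAG-CBFB and -0.23 ± 0.29 (SD, n = 2) for hnRNPK, and the hnRNPK value turned to 0.36 with a pseudocount of 0.1. The edgeR log2 change of 0.89 (SE 0.36, adjusted p = 0.0605) did not pass.

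**Figure D3:**
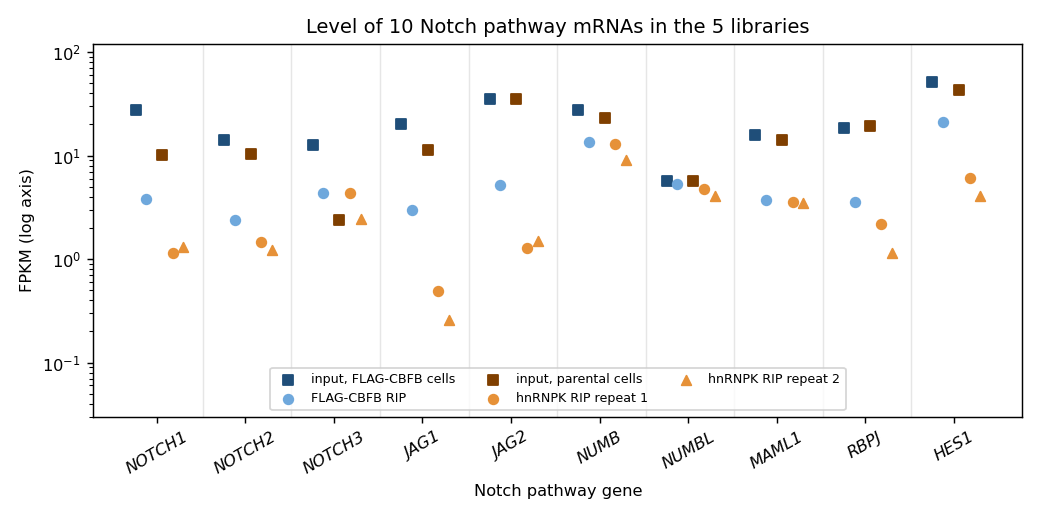
FPKM (y axis, log scale) of the 10 members in each of the 5 libraries, with squares for inputs, blue circles for the FLAG-CBFB RIP, and orange circles and triangles for the hnRNPK repeats. HES1 leads in both inputs, at 51.1 and 43.1 FPKM, and NUMB leads in both hnRNPK RIPs, at 13.1 and 9.04.

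Set in order by hnRNPK enrichment, the members ran NOTCH3, NUMBL, NUMB, MAML1, NOTCH2, NOTCH1, HES1, RBPJ, JAG1 and JAG2. The repeats of the first 4 did not overlap with those of their neighbours. Those of NOTCH2 and NOTCH1 overlapped, as did those of HES1 and RBPJ and of RBPJ and JAG1. JAG1 and JAG2 changed places with a pseudocount of 0.1 and on log2 CPM of the counts with TMM factors. The hnRNPK enrichment was above the FLAG-CBFB enrichment in both repeats for 8 of 10 members, the exceptions being JAG2 and HES1, beside 50.1% of analysed genes. NOTCH1, NOTCH2, NOTCH3 and MAML1, 4 of 10, were below 0 for FLAG-CBFB and above 0 in both hnRNPK repeats, beside 18.9% of analysed genes. The RIPs came from different cell lines against different inputs, so antibody, cell line and library cannot be told apart in these differences.

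The inputs themselves differed most in NOTCH3, and 9 of 10 members were above 0 on the centred scale, beside 50.4% of analysed genes. NOTCH3 was 5.4 times as high in the tagged input as in the parental one, at 12.7 and 2.36 FPKM, NOTCH1 2.73 times, JAG1 1.79 times and NOTCH2 1.38 times. On the centred scale NOTCH3 differed by 2.06 and was the only member above 2, beside 0.519% of analysed genes. NOTCH1 differed by 1.4, and JAG2, NUMBL and RBPJ by 0.02, 0.02 and -0.01. These values are per length, and by counts RBPJ was not equal in the inputs. RBPJ had 71.4 CPM in the tagged input and 41.7 in the parental one. Its mean transcript length was 3993 nt and 2334 nt there, a ratio of 1.71. NUMBL went the other way, with 10.7 and 13.2 CPM at 2052 and 2474 nt. There was 1 library for each cell line, so the cell line and the library cannot be told apart and no test was made. In bulk samples fewer cells with a transcript and less of it per cell cannot be told apart either.

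The choice of input therefore decided the place of NOTCH3. Against the parental input, NOTCH3 in the FLAG-CBFB RIP had an enrichment of 2.04, past the threshold, and against the tagged input its hnRNPK enrichment was 0.93 ± 0.40 (SD, n = 2), under it. NOTCH1 moved in the same way, from -1.23 to 0.17 in FLAG-CBFB RIP and from 0.33 to -1.06 in hnRNPK RIP. NUMBL did not depend on it, with 1.30 in FLAG-CBFB RIP and 2.30 in hnRNPK RIP against the other input. In edgeR with the tagged input in place of the parental one, the log2 change of NOTCH3 was 2.26 (adjusted p = 7.35e-05) and that of NUMBL 4.0 (adjusted p = 1.88e-07), while NOTCH2 (0.70, adjusted p = 0.109) and RBPJ (0.58, adjusted p = 0.201) no longer passed.

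**Figure D4:**
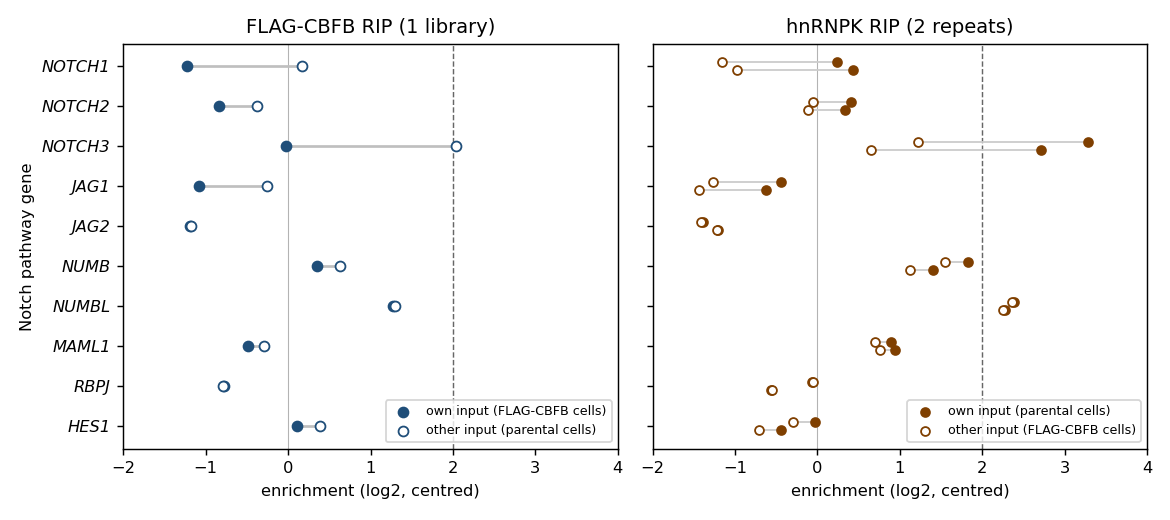
Enrichment (x axis, log2, centred) of the 10 members in FLAG-CBFB RIP (left, 1 library) and hnRNPK RIP (right, 2 repeats), against the own input (filled) and the other input (open). NOTCH3 crosses the threshold of 2 (dashed) in both panels, from -0.03 to 2.04 and from a mean of 3.0 to 0.93, while NUMBL hardly moves.

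Beyond the members, a list of 62 other genes of the pathway was followed, of which 49 passed the filter on low values. In FLAG-CBFB RIP 2 of 49, or 4.08%, were above 2, beside 4.37% of all analysed genes, and in hnRNPK RIP 7 of 49, or 14.3%, beside 8.2%. The medians were -0.33 and 0.06. In edgeR 19 of 49 were higher, 5 lower and 25 did not pass, beside 24.6% higher and 14.3% lower over all analysed genes.

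The pair above 2 in both RIPs belonged to receptor cleavage and ligand uptake. NCSTN encodes nicastrin, a subunit of gamma-secretase, and had 70.1 FPKM in the tagged input and 275 in its RIP, and 57.0 in the parental input with 174 and 138 in the hnRNPK repeats. Its level was thus higher in every RIP than in its input, without any centring. The enrichment was 3.29 for FLAG-CBFB and 4.07 ± 0.18 (SD, n = 2) for hnRNPK (edgeR log2 change 5.63, adjusted p = 1.34e-08). The other gamma-secretase subunit named by the rule went the other way in hnRNPK RIP. PSENEN went from 58.9 FPKM in the parental input to 1.36 and 1.62 in the hnRNPK repeats, an enrichment of -1.95 ± 0.16 (SD, n = 2), and was lower in edgeR (adjusted p = 0.0119).

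EPN1, an epsin that acts in endocytosis of Notch ligands, had 44.0 FPKM in the tagged input and 112 in its RIP, and 47.0 in the parental input with 44.0 and 43.0 in the hnRNPK repeats. Its enrichment was 2.66 for FLAG-CBFB and 2.54 ± 0.03 (SD, n = 2) for hnRNPK. AAK1 (3.25), EP300 (2.68), NRARP (2.23) and SPEN (2.05) were also above 2 in hnRNPK RIP, and are named beyond the rule, after their values were seen. SPEN was below 2 in the first repeat, at 1.80. EP300 is a histone acetyltransferase of the Notch coactivator complex, and SPEN is a corepressor that acts with RBPJ.

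SNW1, a nuclear cofactor, and HDAC1, a histone deacetylase of corepressor complexes, were the lowest of the list in hnRNPK RIP beside PSENEN. SNW1 went from 61.2 FPKM in the parental input to 1.33 and 1.27 in the hnRNPK repeats, an enrichment of -2.11 ± 0.02 (SD, n = 2). HDAC1 had 65.1 FPKM and then 2.02 and 1.85, an enrichment of -1.85 ± 0.01 (SD, n = 2). Both were lower in edgeR (adjusted p = 0.00146 and 0.0075). By role, the 7 nuclear coactivators had a median hnRNPK enrichment of 1.74 and the 9 corepressors -0.80, and both roles held genes on either side of 0. Of all the roles, these had the highest and the lowest median. The medians of the other roles ran from -0.61 to 0.68. The lower was that of 2 ligand-like genes, DLK2 and DNER, as DLL1, DLL3 and DLL4 did not pass the filter. The higher was that of 4 genes of ligand ubiquitination and endocytosis.

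**Figure D5:**
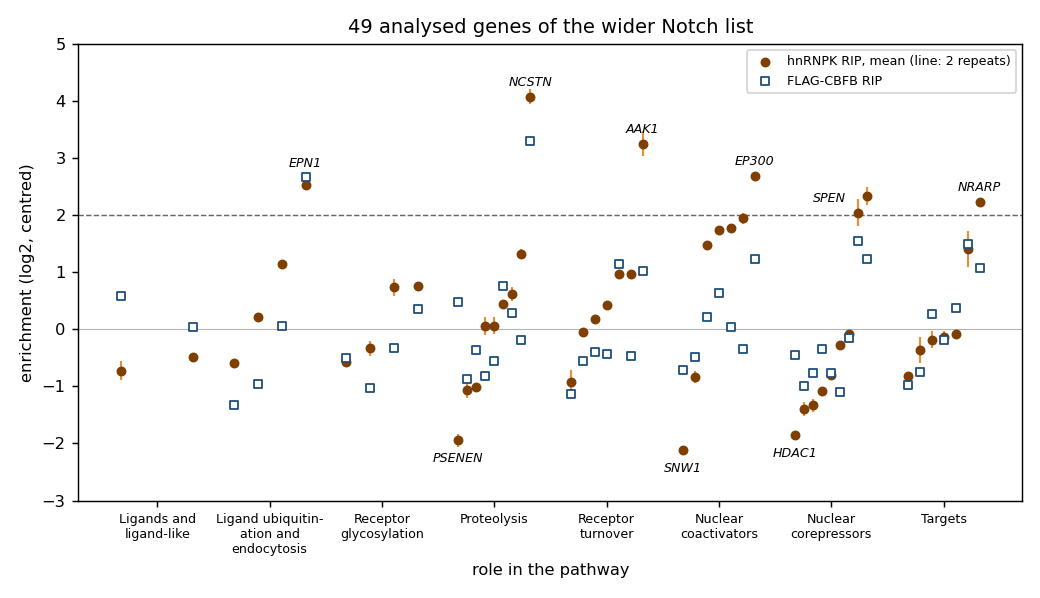
Enrichment (y axis, log2, centred) of the 49 analysed genes of the wider list by role, with filled circles for the mean of the 2 hnRNPK repeats, lines joining the repeats, and open squares for FLAG-CBFB. NCSTN and EPN1 are above the threshold of 2 (dashed) in both RIPs, and PSENEN, SNW1 and HDAC1 are the lowest for hnRNPK.

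Likeness was measured as the Euclidean distance over 5 values, the 3 enrichments and the 2 input levels, on the log2 scale. The nearest protein-coding genes to NOTCH3 were SH3PXD2A, CLDN1 and THSD4, at distances of 0.88, 0.89 and 1.02, and CLDN1 had -0.03 for FLAG-CBFB, as NOTCH3 did, and 2.90 for hnRNPK. Those nearest to NOTCH1 were MTMR1, COL16A1 and ACADSB, at 0.57 to 0.62. NUMB was nearest to ARHGAP1, EIF4G3 and CDCP1, at 0.29 to 0.43, and NUMBL to SETD1A, at 0.38.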

How the data were processed

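Libraries were made from MCF10A RNA extracted with Trizol, using a TruSeq mRNA kit. Per the submitters' processing notes, Trimmomatic, STAR and RSEM were used with build hg19, and versions were not given in the sources used here. The authors deposited RSEM's expected count per gene and library, an estimated count that shares reads among the genes they match. The deposited FPKM divides it by effective length and library total, and a mean transcript length is given beside both. Mitochondrial reads count in the FPKM total, which lowers all other values.

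Symbols came from a gene name table and from GENCODE 29 (GRCh38), for 50276 of 56632 identifiers. Coordinates are from GENCODE 29, since the tables hold none. Enrichment used log2(FPKM + 1), own input, mean centring and the 11764 genes averaging 1 FPKM or more, with a threshold of 2. FLAG-CBFB and the inputs had 1 library each, so no test was run on them. Expected counts were rounded to whole numbers and tested with edgeR 4.0.16 in R 4.3.3 (quasi-likelihood test, TMM factors, Benjamini-Hochberg over all analysed genes, 2 hnRNPK RIPs against 1 parental input). The code was tested on simulated data. Counting errors are 95% intervals of log2 count ratios and cover counting error only. Sequences are from the longest GENCODE 29 coding transcript listed in the tables.

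The members, the wider list and the tests were chosen with earlier results of these data known. Named genes were the members, GAPDH, RUNX1, list genes above 2 in both enrichments (up to 5), the 3 lowest for hnRNPK (each with at least 50 counts), and the 3 nearest protein-coding genes to NOTCH1, NOTCH3, NUMB and NUMBL. CBFB was read only to check the labels. Some genes that met these rules are not reported here. Alternatives were a pseudocount of 0.1, no or median centring, FPKM rescaled without mitochondrial genes, other filters, log2 CPM (prior count 2), the other input, a threshold of 1, each repeat left out, other scalings in edgeR, and DESeq2 1.42.0.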

Additional observations from a re-analysis of the deposited data

Results flagged for a closer look

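In 5 members the FLAG-CBFB RIP and both hnRNPK RIPs moved in opposite directions from the average gene. NOTCH1, NOTCH2, NOTCH3 and MAML1 were below 0 for FLAG-CBFB and above 0 in both hnRNPK repeats, beside 18.9% of analysed genes. HES1 went the other way, for which no share of all genes was counted. Its first hnRNPK repeat, at -0.02, was within its counting error of ± 0.11. The FLAG-CBFB enrichment minus the mean hnRNPK enrichment was -1.56 for NOTCH1, -1.21 for NOTCH2, -3.02 for NOTCH3, -1.40 for MAML1 and 0.34 for HES1. The FLAG-CBFB RIP was 1 library, so the difference was not tested, and cell line, input and antibody cannot be told apart. With each RIP set against the other input, NOTCH3 had 2.04 in FLAG-CBFB RIP and 0.93 in hnRNPK RIP, and NOTCH1 0.17 and -1.06. The FLAG-CBFB value of NOTCH3, -0.03, was within its counting error of 0.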

How the results depend on the processing

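No paired analysis was possible because the hnRNPK RIP and the parental input have only the number 1 in common. Leaving out 1 hnRNPK repeat left 1 library in each arm, so edgeR could not be run, and with either repeat 2 members and 7 genes of the wider list were above 2 for hnRNPK, and 2 of the list in both RIPs. The count of FLAG-CBFB-enriched members was 1 with log2 CPM (NUMBL), with the other input (NOTCH3) and with a threshold of 1 (NUMBL), and 0 otherwise. The count of hnRNPK-enriched members was 0 without centring and with all genes in the tables, whose many unexpressed genes pull the centre towards 0, and 1 with the other input. Other settings gave 2 or 3. NUMBL turned to -0.32 for hnRNPK without centring. For the wider list, no centring gave 0 genes for FLAG-CBFB, 0 for hnRNPK and 0 in both, all genes 1, 1 and 1, and a threshold of 1 gave 9, 14 and 8. The share of all analysed genes above 1 was not counted, and their upper quartiles were 0.18 for FLAG-CBFB and 0.82 for hnRNPK. For hnRNPK the list had 4 genes when only those averaging 5 FPKM or more were kept (fewer genes tested) and 12 with log2 CPM.

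In edgeR, library sizes alone gave 0 members higher and 8 lower, all but NOTCH3 and NUMBL. The log2 changes that turned below 0 were -3.07 for NOTCH1, -2.91 for NOTCH2, -1.12 for NUMB, -0.39 for NUMBL (adjusted p = 0.359, not called), -2.0 for MAML1, -2.73 for RBPJ and -3.07 for HES1, while JAG1 and JAG2, below 0 before, had -4.95 and -4.58. No filter on low counts gave 4 higher, without NOTCH2 and RBPJ, and 2 lower, JAG1 and JAG2. DESeq2's Wald test gave 7 higher, with NOTCH1 added, and 0 lower, beside 23.8% and 7.11% of analysed genes. The log2 change of NOTCH1 was -0.46 with the tagged input. NOTCH3, NUMB, NUMBL and MAML1 stayed higher at an adjusted p under 0.05 in every edgeR and DESeq2 setting except library sizes alone. Values of single members moved by more than their error in 130 of 180 alternatives. The single libraries of FLAG-CBFB RIP and of each input limit what can be compared.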
